A study of Saccharomyces cerevisiae with 4 samples.

Results

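The distal right arms of chromosomes II and XIII of budding yeast were followed in Hi-C contact maps made at 37 °C and at 25 °C. In Hi-C, DNA is fixed in place, cut and ligated, and sequencing counts how often each pair of restriction fragments was joined. Each arm was taken as a set run of consecutive fragments in the order of the 25 °C map, and the matching fragments of the 37 °C map, about 100 or more fragments from the centromere and short of the chromosome end. They were set by position, not by a difference between the temperatures, though earlier results of these data were known when they were chosen. Of their 232 fragments, 231 had enough contacts to be kept, 96 on II and 135 on XIII, out of 4282 kept in the genome. Counted from the centromeres found in the maps, the fragments of II lie 107 to 202 fragments out and those of XIII 98 to 232 fragments out, so the innermost of XIII fall slightly short of the 100 fragments by which such arms were defined. Each arm stops 13 fragments before the end of its chromosome. At a mean of 2.81 kb per kept fragment, and by interpolation in the gene table of build R64, the arms correspond to about 524 to 777 kb of chromosome II, which spans 811 kb from first to last gene with its centromere at 238 kb, and to about 530 to 888 kb of chromosome XIII, which spans 923 kb with its centromere at 268 kb. They hold 148 and 184 protein-coding genes in that interpolation.

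The cells were strain BY4742, a common laboratory haploid, grown in rich YPD medium at 25 °C. Each culture was split: 1 aliquot was moved to 37 °C for 15 minutes by adding prewarmed fresh YPD and fixed at 37 °C, and the other was fixed at 25 °C. Both were fixed with 3% formaldehyde and cut with HindIII, and each temperature had 2 biological replicates. Heat, fresh medium and the temperature of fixation changed together between the aliquots, so they cannot be told apart. The replicates come combined into 1 map per temperature, so there is no replicate error, and no test between the temperatures could be made.

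In yeast the centromeres of all chromosomes are held in a cluster at the spindle pole body on one side of the nucleus, and chromosome ends gather at the nuclear envelope. The arms extend away from the centromere cluster, which is known as the Rabl arrangement. A locus far along a long arm therefore tends to meet loci that lie equally far out on other arms, and it seldom meets centromeres. The right arms of II and XIII are of similar length, so their outer parts reach similar depths in this arrangement.

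The 37 °C map held 1937970 contacts, with a median of 718 per fragment, and the 25 °C map held 5920062, with a median of 2729. Kept fragments of the arm of II had median totals of 732.5 contacts at 37 °C and 2646 at 25 °C, and those of XIII had 726 at 37 °C and 2551 at 25 °C. Contacts with other chromosomes made up 76.9% of the contacts of II's arm at 37 °C and 87.1% at 25 °C. For the arm of XIII they made up 82.0% at 37 °C and 90.6% at 25 °C. Both maps hold few contacts between nearby fragments. Within the arms 97.4% of adjacent pairs were empty at 37 °C and 100% at 25 °C. The shares are therefore of the counts in these maps, not of all contacts made. Values below are ratios of observed to expected contacts between chromosomes, where the expected count is the product of fragment factors that match every fragment's total, and 1 means no preference. Their exact 95% intervals, and those of log2 ratios of 37 °C over 25 °C, cover counting error only. Because each fragment's total is matched, a higher ratio with one class of partner forces a lower ratio with the others, so the classes are not independent of each other.

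Some fragments were counted much more often at 37 °C than their neighbours. Raised fragments, whose factor ratio of 37 °C over 25 °C was more than 2 times the median, numbered 14 of 96 on II (14.6%) and 19 of 135 on XIII (14.1%), close to the 13.5% of all kept fragments. These fragments stood apart in both maps. Raised fragments on II had a median ratio with centromere regions of 0.523 at 37 °C and 0.382 at 25 °C, where the other fragments of the arm had 0.328 at 37 °C and 0.254 at 25 °C. On XIII the raised fragments had 0.570 at 37 °C and 0.417 at 25 °C, against 0.339 at 37 °C and 0.237 at 25 °C for the rest. Since they carry more weight at 37 °C, main values are followed by the value after a refit without any raised fragment in the genome.

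Both arms avoided the centromeres of other chromosomes at both temperatures, and less so at 37 °C. The arm of II met centromere regions, the fragments up to 7 from a centromere, at a ratio of 0.418 at 37 °C (1757 contacts, interval 0.399 to 0.438) and of 0.275 at 25 °C (4301 contacts, interval 0.267 to 0.284). This was a log2 ratio of 0.60 (0.52 to 0.68), and 0.34 (0.22 to 0.46) without raised fragments. The arm of XIII met them at 0.433 at 37 °C (2777 contacts, 0.417 to 0.450) and 0.264 at 25 °C (5797 contacts, 0.258 to 0.271). Its log2 ratio was 0.71 (0.65 to 0.78), or 0.53 (0.44 to 0.62) without raised fragments. The plain share of each arm's contacts with other chromosomes moved the same way. Centromere regions took 2.58% of it on II at 37 °C against 1.87% at 25 °C, and 2.72% on XIII at 37 °C against 1.82% at 25 °C.

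The difference faded with the partner's distance from its own centromere and turned round farther out. With partners 8 to 19 fragments out, the arm of II had a ratio of 0.586 at 37 °C and 0.465 at 25 °C. For the arm of XIII these were 0.567 at 37 °C and 0.435 at 25 °C. The log2 ratios of this class were 0.33 for II and 0.38 for XIII, and 0.19 and 0.24 without raised fragments. With partners 20 to 49 fragments out, the log2 ratio was 0.08 for II and 0.14 for XIII. Without raised fragments it was 0.01 for II (-0.03 to 0.05, an interval that includes 0) and 0.09 for XIII (0.06 to 0.13). The next class, 50 to 99 fragments out, met both arms at a ratio slightly above 1, at 1.06 at 37 °C and 1.09 at 25 °C for II and at 1.05 at 37 °C and 1.08 at 25 °C for XIII. Partners 200 or more fragments out were met most. The arm of II met them at 1.32 at 37 °C (1.29 to 1.34) and 1.44 at 25 °C (1.42 to 1.45), and the arm of XIII at 1.41 at 37 °C (1.39 to 1.43) and 1.55 at 25 °C (1.53 to 1.56). In each of the 7 distance classes, and for both arms, the ratio lay nearer to 1 at 37 °C than at 25 °C. Without raised fragments the log2 ratio for the outermost class came to -0.03 for II (-0.07 to 0.02, an interval that includes 0), and to -0.05 for XIII (-0.09 to -0.01). The maps also differed in depth and in the share of contacts between chromosomes; the part of either in this pattern was not tested.

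**Figure D1:**
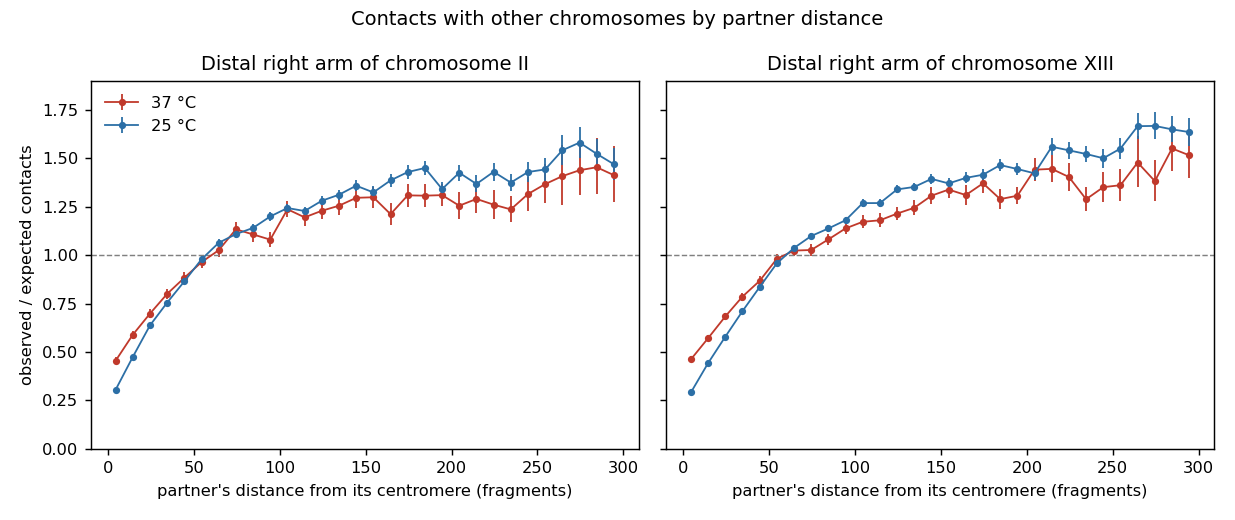
Observed over expected contacts (y axis) of the distal right arms of II (left) and XIII (right) with fragments of other chromosomes, in steps of 10 fragments of the partner's distance from its own centromere (x axis), with exact 95% counting intervals. Points at 37 °C lie above those at 25 °C for partners up to 49 fragments out, and below them in most steps beyond 60, while both curves climb away from the centromere.

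The ratio with centromere regions was also followed along the arms. Cut into 4 stretches of 24 fragments, the arm of II met centromere regions at 0.437, 0.439, 0.303 and 0.451 at 37 °C, from the innermost stretch outward, and at 0.322, 0.255, 0.236 and 0.289 at 25 °C. All 4 were higher at 37 °C, with log2 ratios of 0.44, 0.79, 0.36 and 0.64. The third stretch, 155 to 178 fragments out, was the lowest at both temperatures, and it alone held no raised fragment, where the others held 3, 2 and 9. Without raised fragments the 4 stretches had 0.317, 0.331, 0.273 and 0.304 at 37 °C. At 25 °C they had 0.281, 0.231, 0.228 and 0.222, lower at each step outward, though the counting intervals of the last 3 overlapped. The log2 ratios of the 4 stretches were then 0.17 (-0.06 to 0.39, an interval that includes 0), 0.52, 0.26 and 0.45. The arm of XIII was cut into 5, and its stretches of 27 fragments had 0.453, 0.413, 0.403, 0.430 and 0.458 at 37 °C, against 0.266, 0.282, 0.252, 0.257 and 0.264 at 25 °C. Without raised fragments these were 0.388, 0.330, 0.295, 0.311 and 0.305 at 37 °C, and 0.239, 0.253, 0.222, 0.213 and 0.206 at 25 °C. With partners 200 or more fragments out, by contrast, ratios climbed along the arm of XIII from stretch to stretch. They were 1.29, 1.36, 1.41, 1.46 and 1.50 at 37 °C, and 1.40, 1.46, 1.59, 1.62 and 1.65 at 25 °C. Along the arm of II they climbed at each step only at 25 °C, with 1.36, 1.39, 1.49 and 1.50. At 37 °C they were 1.24, 1.25, 1.42 and 1.36. On either side of the inner limit the values were close on II, where the 10 fragments just inside had 0.374 with centromere regions at 37 °C and 0.303 at 25 °C, and the 10 just outside had 0.377 at 37 °C and 0.299 at 25 °C. On XIII the 10 just inside had 0.448 at 37 °C and 0.260 at 25 °C, and the 10 just outside 0.430 at 37 °C and 0.325 at 25 °C.

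Single fragments spread widely, more so in the shallower 37 °C map. On II the ratio with centromere regions ran from 0.0438 to 0.816 with a median of 0.363 at 37 °C, and from 0.146 to 0.584 with a median of 0.263 at 25 °C. It was higher at 37 °C in 74 of 96 fragments. On XIII it ran from 0.0695 to 0.736 with a median of 0.355 at 37 °C, and from 0.153 to 0.610 with a median of 0.246 at 25 °C, and was higher at 37 °C in 109 of 135 fragments. A log2 difference of at least 0.2, with at least 10 contacts expected in each map, was counted as a call. By that measure 57 of 96 fragments of II (59.4%) and 97 of 135 of XIII (71.9%) were higher at 37 °C, against 48.9% of all fragments tested and 70% of the fragments of other distal arms. Lower at 37 °C were 14 on II (14.6%) and 15 on XIII (11.1%), against 16.4% of all fragments and 12.2% of other distal arms. The share on XIII was thus near that of other distal arms, and the share on II was below it; that difference was not tested.

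**Figure D2:**
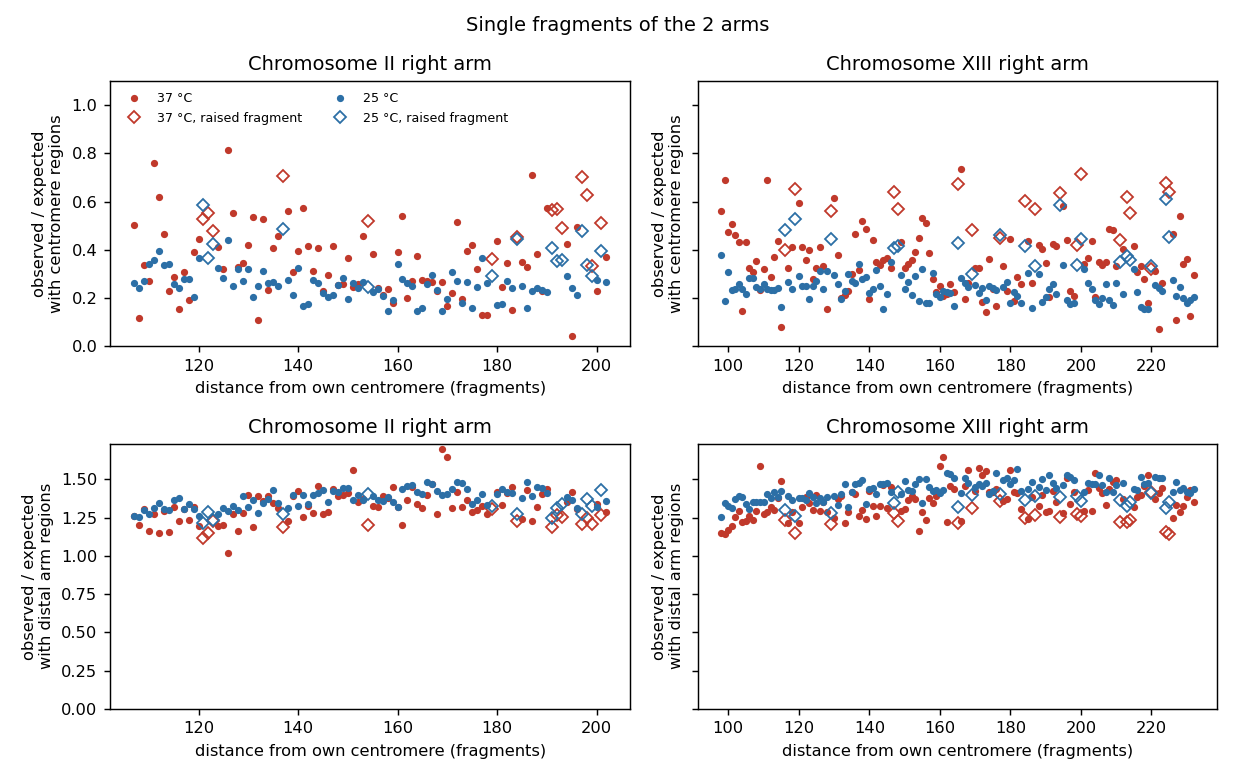
Observed over expected contacts of every kept fragment of the 2 arms with centromere regions (top) and with distal arm regions (bottom) of other chromosomes, by the fragment's distance from its own centromere; open diamonds are raised fragments. Most 37 °C points in the top panels lie above the 25 °C points (74 of 96 fragments on II and 109 of 135 on XIII), and the 37 °C points scatter more in all panels.

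The lowest single values rested on few contacts. The fragment of II 195 from its centromere had 1 contact with centromere regions at 37 °C and 30 at 25 °C, giving 0.0438 at 37 °C and 0.240 at 25 °C. The highest on II at 37 °C, 126 out, had 17 contacts at 37 °C and 40 at 25 °C, giving 0.816 at 37 °C and 0.439 at 25 °C. On XIII the lowest at 37 °C, 222 out, had 1 contact at 37 °C and 28 at 25 °C, giving 0.0695 at 37 °C and 0.241 at 25 °C. The highest there, 166 out, rested on more, 75 contacts at 37 °C and 69 at 25 °C, giving 0.736 at 37 °C and 0.283 at 25 °C. The highest values at 25 °C belonged to raised fragments, on II the one 121 out, with 0.528 at 37 °C (82 contacts) and 0.584 at 25 °C (103 contacts), and on XIII the one 224 out, with 0.677 at 37 °C (66 contacts) and 0.610 at 25 °C (85 contacts).

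Taken one centromere at a time, the arm of II met 14 of 15 other centromere regions at a higher ratio at 37 °C, and for 10 of them the counting interval lay above 0. The centromere of IX stood highest, at 0.606 at 37 °C and 0.282 at 25 °C, with a log2 ratio of 1.10 (0.81 to 1.39). By the ratio at 37 °C the centromere of IV followed, with 0.502 at 37 °C and 0.282 at 25 °C, and by the log2 ratio that of XVI (0.93), with 0.490 at 37 °C and 0.257 at 25 °C. The exception was the centromere of V, met at 0.293 at 37 °C and 0.294 at 25 °C. The arm of XIII met all 15 at a higher ratio at 37 °C, with 13 intervals above 0. Its highest log2 ratios were with the centromeres of XIV (1.05, 0.82 to 1.28) and IX (1.04, 0.78 to 1.29), and its lowest with those of VIII (0.12, -0.20 to 0.42) and V (0.15, -0.17 to 0.46). The centromere of IX was thus near the top, and that of V at or near the bottom, for both arms. Between the arms, II met the centromere region of XIII at 0.378 at 37 °C and 0.243 at 25 °C, and XIII met that of II at 0.475 at 37 °C and 0.250 at 25 °C.

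The direct contacts of the 2 arms with each other were above expectation and somewhat fewer at 37 °C. They numbered 3004 at 37 °C, a ratio of 1.24 (1.19 to 1.28), and 10368 at 25 °C, a ratio of 1.35 (1.33 to 1.38). On the log2 scale the difference was -0.13 (-0.19 to -0.07). Without raised fragments the arms met at 1.31 at 37 °C and 1.38 at 25 °C, with a difference of -0.08 whose interval (-0.15 to 0.0028) includes 0. As a plain share, XIII's arm took 4.41% of the inter-chromosomal contacts of II's arm at 37 °C and 4.51% at 25 °C, and II's arm took 2.95% of those of XIII's arm at 37 °C and 3.25% at 25 °C. The contacts were spread over the whole block: of 12960 fragment pairs, 81.5% were empty at 37 °C and 47.5% at 25 °C, where independent counts at the fitted means would leave 81.3% at 37 °C and 46.6% at 25 °C. The fullest pair held 7 contacts at 37 °C and 8 at 25 °C.

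Among the 117 pairs of distal arms on different chromosomes, II with XIII was an ordinary pair. It ranked 52nd by its ratio at 37 °C and 32nd at 25 °C. The median pair stood at 1.23 at 37 °C and 1.30 at 25 °C. Of the 117 pairs, 103 had a lower ratio at 37 °C, with a median log2 ratio of -0.10, and II with XIII ranked 74th from the highest log2 ratio.

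Fragment pairs were also sorted by how unequal their distances from the 2 centromeres were. Where the distances from the 2 centromeres differed by less than 20 fragments the ratio was 1.24 at 37 °C and 1.39 at 25 °C, and where they differed by 20 to 49 it was 1.28 at 37 °C and 1.37 at 25 °C. For differences of 50 to 99 it was 1.17 at 37 °C and 1.32 at 25 °C. Only the corner of the block with differences of 100 or more was higher at 37 °C, at 1.40 (1.15 to 1.69, 106 contacts), against 1.23 at 25 °C (1.08 to 1.38, 267 contacts), and the interval of its log2 ratio, -0.15 to 0.52, includes 0. At 25 °C the ratio of the 2 arms thus declined at each step as the distances grew more unequal, from 1.39 to 1.23. Its counting intervals at neighbouring steps overlapped, and at 37 °C the ratio did not run in one direction. Among all pairs of the other distal arms the ratio climbed over these steps, from 1.37 to 1.47 at 25 °C and from 1.29 to 1.34 at 37 °C. These arms include longer ones, such as IV right, whose stretches reach 373 fragments out, against 202 for II and 232 for XIII. The last step has no upper bound, so among the other arms it also holds fragments from farther out. The 2 trends are therefore not compared like with like.

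Split into the same stretches as above, the block gave 20 stretch pairs with ratios of 1.09 to 1.56 at 37 °C and 1.10 to 1.55 at 25 °C. By the 0.2 measure 7 of 20 (35%) were lower at 37 °C, against 32.8% of all 1643 such pairs in the genome, and none was higher, against 5.6%. The farthest call was the pair of II's outermost stretch with the fourth stretch of XIII, both 179 or more fragments out, at 1.17 at 37 °C (214 contacts) and 1.55 at 25 °C (664 contacts), which is -0.41 on the log2 scale (-0.64 to -0.19). That pair was the highest of the 20 at 25 °C and among the lower ones at 37 °C. Its stretches held 9 raised fragments of 24 on II and 5 of 27 on XIII. No values without raised fragments are given for stretch pairs. The interval of the log2 ratio stayed below 0 for 3 of the 20 pairs.

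**Figure D3:**
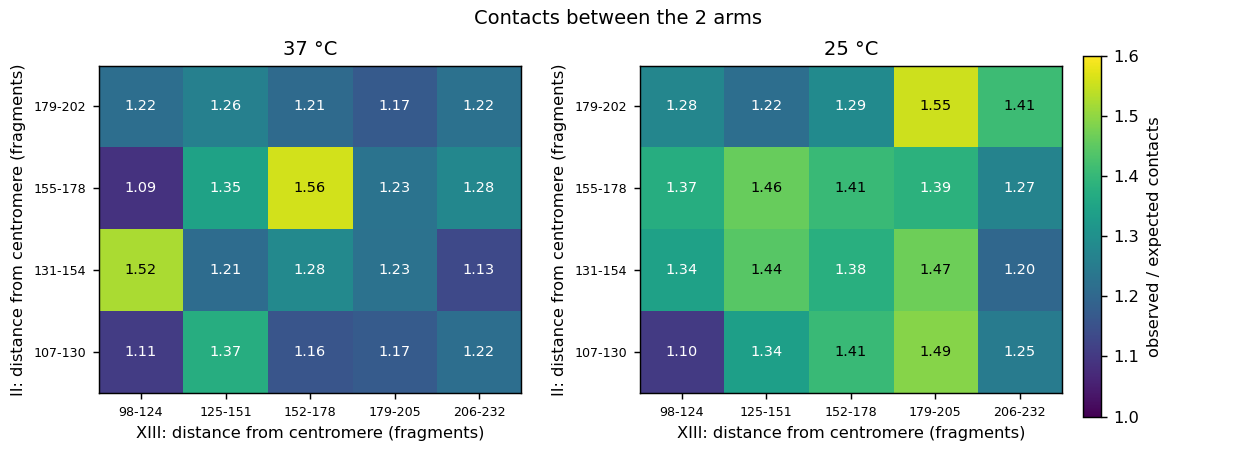
Observed over expected contacts between stretches of the distal right arm of II (rows, from 107 to 202 fragments out) and of XIII (columns, from 98 to 232 fragments out) at 37 °C and 25 °C, on one colour scale from 1.0 to 1.6. At 25 °C the column of XIII 179 to 205 fragments out holds the 3 highest values, 1.47 to 1.55; at 37 °C the highest, 1.56 and 1.52, lie in other columns.

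Over all distal arm regions of other chromosomes, the arm of II had a ratio of 1.28 at 37 °C (1.27 to 1.30) and 1.36 at 25 °C (1.36 to 1.37). The arm of XIII had 1.31 at 37 °C (1.29 to 1.32) and 1.42 at 25 °C (1.42 to 1.43). The log2 ratios were -0.09 for II and -0.12 for XIII. Without raised fragments they were -0.03 and -0.06. Few single fragments passed the 0.2 measure here. Lower at 37 °C were 4 of 96 on II (4.17%) and 11 of 135 on XIII (8.15%), against 6.38% of all fragments and 10.6% of other distal arms. Higher were 2 on each arm (2.08% and 1.48%), against 14.2% of all fragments and 0.226% of other distal arms.

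At 25 °C the same 3 arms led the partners of both. The arm of II was met most by the right arms of IV (1.36 at 37 °C, 1.50 at 25 °C), XII (1.35 at 37 °C, 1.47 at 25 °C) and XV (1.27 at 37 °C, 1.37 at 25 °C). The arm of XIII was met most by XII right (1.40 at 37 °C, 1.61 at 25 °C), IV right (1.43 at 37 °C, 1.58 at 25 °C) and XV right (1.37 at 37 °C, 1.47 at 25 °C). At the low end for both stood IX left, which II met at 1.11 at 37 °C and 1.10 at 25 °C and XIII at 1.13 at 37 °C and 1.15 at 25 °C. Next lowest at 25 °C were XVI right (1.29 at 37 °C, 1.19 at 25 °C) and VIII right for II, and X left (1.09 at 37 °C, 1.23 at 25 °C) and VIII right (1.19 at 37 °C, 1.26 at 25 °C) for XIII. The listed partner regions differ in how far out they lie, with a median of 236 fragments for IV right and 110 for IX left.

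At 37 °C other arms joined the top of the order for II, while IV right, XII right and XV right still led for XIII and X left and XVI right (1.11 at 37 °C, 1.28 at 25 °C) were its lowest. VII right (1.37) and X left (1.37) stood level with IV right for the arm of II at 37 °C, where they had been at 1.36 and 1.24 at 25 °C, and the lowest partners besides IX left were VIII right (1.12 at 37 °C, 1.21 at 25 °C) and XI left (1.15 at 37 °C, 1.26 at 25 °C). The log2 ratio of II was highest with X left (0.14, 0.02 to 0.26), XVI right (0.12, -0.01 to 0.26) and VII right (0.02, -0.05 to 0.08), and lowest with IV right (-0.15, -0.19 to -0.10), IV left (-0.14) and XI left (-0.13). For XIII all 15 were below 0, or 13 of 15 without raised fragments, where VIII right and IX left came to 0.0082 and 0.0016. They were lowest with XII right (-0.21, -0.25 to -0.17), XVI right (-0.20, -0.32 to -0.08) and X left (-0.17, -0.28 to -0.06), and nearest to 0 with IX left (-0.02, -0.16 to 0.11), XI left (-0.06) and XVI left (-0.08). X left and XVI right were therefore at opposite ends of the order for the 2 arms, on 581 to 862 contacts at 37 °C. Without raised fragments the value with X left was 0.19 for II and -0.19 for XIII, and the value with XVI right was 0.13 for II and -0.07 for XIII. Only X left was then at opposite ends, since for XIII arms such as IV left (-0.13) and XII right (-0.12) lay below XVI right. Whether the arms differ in this was not tested, as no replicate gives an error for it.

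**Figure D4:**
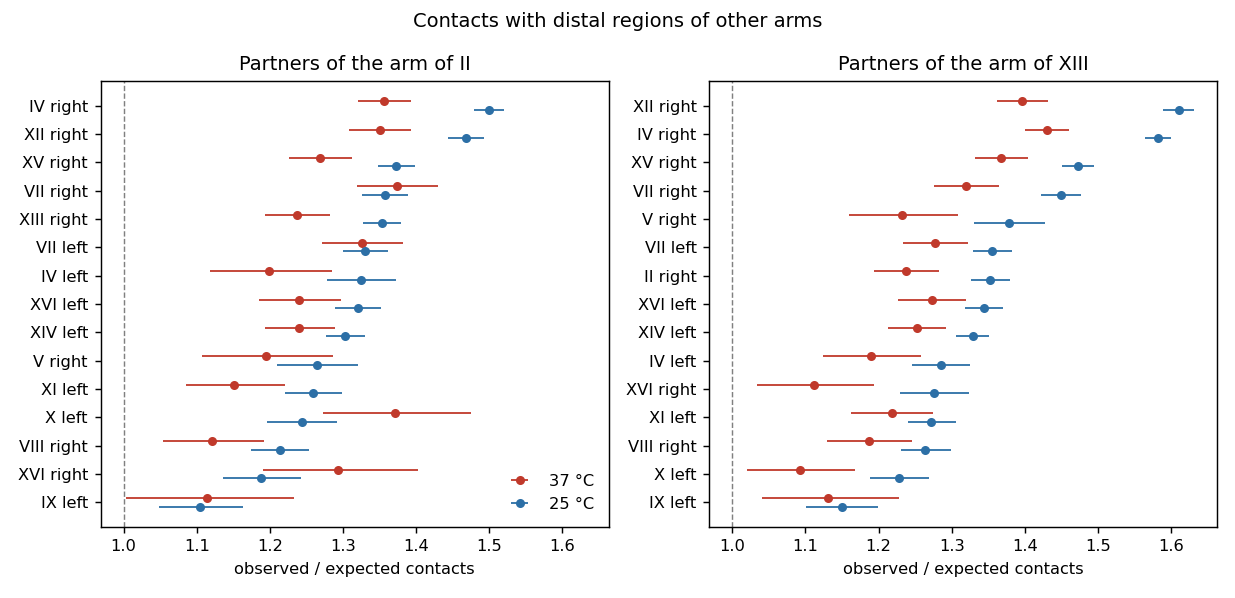
Observed over expected contacts of the distal right arm of II (left) and XIII (right) with the distal region of each other arm, with exact 95% counting intervals, ordered by the 25 °C value. For XIII all 15 partners lie lower at 37 °C; for II, X left and XVI right lie higher at 37 °C, at 1.37 and 1.29.

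Set beside arms cut to the same distance from their centromeres, and with raised fragments included, neither arm stood outside the others' range in its ratio with centromere regions. In the window of II, 107 to 202 fragments out, 8 arms could be compared. The arm of II had 0.418 at 37 °C and 0.275 at 25 °C, where the other 7 ran from 0.378 to 0.481 at 37 °C and from 0.252 to 0.291 at 25 °C, and its log2 ratio of 0.60 was the 5th of 8. The matching stretch of XIII, at 0.423 at 37 °C and 0.268 at 25 °C, had a log2 ratio of 0.66, the 4th. Without raised fragments II had the lowest of the 8 log2 ratios, 0.34 against 0.42 to 0.55 for the rest. Its ratio at 37 °C was then 0.305, just below the 0.306 to 0.384 of the rest, while at 25 °C it stayed inside their range. In the wider window of XIII, 98 to 232 fragments out, 5 arms could be compared, and XIII had the highest log2 ratio, 0.71 against 0.62 to 0.67, also without raised fragments, 0.53 against 0.46 to 0.50. These intervals overlap, that of XIII running from 0.65 to 0.78 and that of IV right, the lowest, from 0.55 to 0.70.

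**Figure D5:**
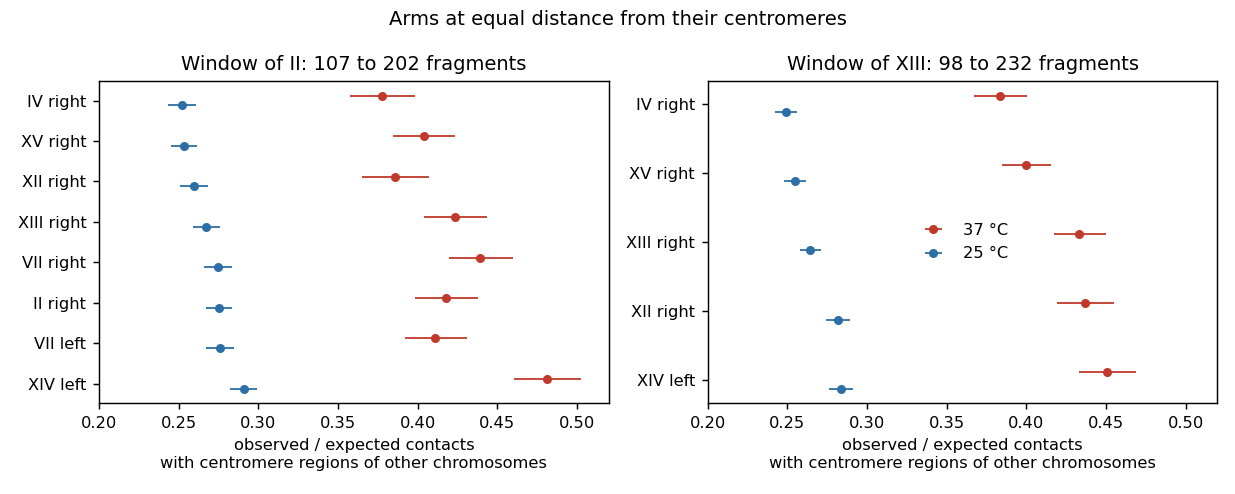
Observed over expected contacts with centromere regions of other chromosomes for arms cut to the same distance window, that of II (left, 8 arms) and that of XIII (right, 5 arms), with exact 95% counting intervals; the x axis starts at 0.20. Raised fragments are included. In every arm the 37 °C value lies to the right of the 25 °C value, and II and XIII lie inside the range of the other arms at both temperatures.

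Chromosome ends, the outermost 11 fragments of each chromosome, were met at a ratio close to 1. The ratio for the arm of II was 1.02 at 37 °C (0.99 to 1.05) and 1.01 at 25 °C (0.99 to 1.02), and for XIII it was 1.03 at 37 °C (1.01 to 1.05) and 0.973 at 25 °C (0.961 to 0.986). The log2 ratio of XIII was 0.08 (0.04 to 0.12), and 0.05 without raised fragments, with an interval (-0.0045 to 0.09) that includes 0. Their average hides a split by arm length. Ends of long arms, 100 or more fragments from their centromere, were met at 1.21 at 37 °C and 1.24 at 25 °C by II, and at 1.25 at 37 °C and 1.24 at 25 °C by XIII. Ends of shorter arms were met at 0.772 at 37 °C and 0.710 at 25 °C by II, and at 0.725 at 37 °C and 0.632 at 25 °C by XIII. For these short-arm ends the log2 ratio was 0.12 (0.04 to 0.20) for II and 0.20 (0.13 to 0.27) for XIII, or 0.08 (-0.03 to 0.19) and 0.11 (0.02 to 0.20) without raised fragments.

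Within their own chromosomes the arms were set against pairs equally far apart on the other chromosomes. The arm of II met its own centromere region at 0.373 of that rate at 37 °C (215 contacts) and 0.130 at 25 °C (189 contacts), with a log2 ratio of 1.53 (1.24 to 1.82). The arm of XIII met its own at 0.354 at 37 °C (256 contacts) and 0.260 at 25 °C (482 contacts), with a log2 ratio of 0.45 (0.22 to 0.67). At 25 °C the own-centromere ratio of II was thus below that of XIII, and at 37 °C their intervals overlapped (0.325 to 0.427 for II, 0.312 to 0.400 for XIII). Contacts with the left arm of the same chromosome were near the rate of other chromosomes, at 0.924 at 37 °C and 1.00 at 25 °C for II and at 0.909 at 37 °C and 0.879 at 25 °C for XIII. The left end was met more than at that rate by II, at 1.35 at 37 °C and 1.69 at 25 °C. XIII met its left end at 1.28 at 37 °C and 1.03 at 25 °C, so the log2 ratio was -0.32 (-0.52 to -0.13) for II and 0.31 (0.14 to 0.48) for XIII. Pairs of fragments close together cannot be described, since within the arms 88.5% of pairs 2 to 10 fragments apart at 37 °C and 97.5% at 25 °C held no contact.

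Genes serve as landmarks only, since a gene's place among the fragments is interpolated, and the values describe neighbourhoods of up to 11 fragments that overlap where genes are close. The listed genes on the arms were 7 on II and 13 on XIII, in 17 different neighbourhoods, since 3 pairs of neighbouring genes share the same fragments. On II they were SSE2, a nucleotide exchange factor of cytosolic chaperones, the ribosomal protein genes RPS6B, RPS9B and RPL21A, the glycolytic isomerase gene PGI1, the urea amidolyase gene DUR1,2 and RIF1, whose product limits telomere length. On XIII they were HSC82, an abundant cytosolic chaperone made also without stress, the stress genes ALD2, ALD3, DDR48 and SIP18, the ribosomal protein genes RPL13B, RPS16A, RPL36A, RPS10B and RPL20A, CAT8, an activator of gluconeogenic genes, ADH2, the alcohol dehydrogenase repressed by glucose, and GAS1, a cell wall enzyme.

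All 17 neighbourhoods met centromere regions at a higher ratio at 37 °C, as did 99.7% of 1165 neighbourhoods of the same width slid along the other distal arms. The largest log2 ratio was at PGI1, 0.500 at 37 °C and 0.262 at 25 °C (0.94, 0.70 to 1.17), and the smallest at RPS10B, 0.316 at 37 °C and 0.257 at 25 °C (0.30, 0.01 to 0.57). The heat shock genes had overlapping intervals. HSC82 had 0.336 at 37 °C and 0.266 at 25 °C (0.33, 0.05 to 0.61) with no raised fragment in its neighbourhood, and SSE2 had 0.492 at 37 °C and 0.345 at 25 °C (0.51, 0.32 to 0.71) with 3. The stress genes of XIII, which lie close together 124 to 128 fragments out, had log2 ratios of 0.65 to 0.73, and the ribosomal protein genes ranged from 0.30 to 0.88 over both arms. With distal arm regions all 17 had a lower ratio at 37 °C, as did 99.9% of those on the other arms, with log2 ratios of -0.19 at ADH2 to -0.05 at RPS10B. These are the values of the surrounding stretches, and nothing here is particular to the genes.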

How the data were processed

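The authors deposited contact counts, 1 symmetric matrix per temperature with the replicates combined, without fragment names or coordinates. Reads were aligned with Bowtie 1.1.0 to R64, per the submitters' processing notes; what followed the alignment is not given in the sources used here. Each temperature's matrix is known by its file's name.

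Both maps were aligned by fragment order and totals (4382 fragments matched; 6 of the 25 °C map and 1 of the 37 °C map were not, the largest with 287 contacts) and cut into 16 chromosomes on the summed maps. The 37 °C map alone gave the same 15 borders, while the shallower short-range counts of the 25 °C map alone gave 11 of 15 within 1 fragment and missed the far border of XIII and that between I and II. Centromeres were placed where contacts with other centromeres peak. They lay a median of 12.4 kb, and at most 47.2 kb, from their interpolated annotated positions (11.5 kb on II and -13.2 kb on XIII, where positive means farther right). The penalty for unmatched fragments, the rule for borders and separations up to 150 fragments, and the rule for centromeres were settled after other versions had been tried on the maps and set against known chromosome lengths.

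The lowest 2% of fragments in either map were left out. Expected counts came from iterative proportional fitting over inter-chromosomal pairs. Intervals are exact (Poisson for a ratio to expectation, Clopper-Pearson between maps) at 95%. Listed genes came from set lists, including TPS1, PHO89 and MAL31 to MAL33, which lie outside the stretches, and DUR1,2, written DUR12 in the gene table; partner arms are the 3 highest and lowest by ratio and by log2 ratio. The members, gene lists and measures were chosen with earlier results of these data known; the stretches of about 25 fragments, steps of 10, equal-distance windows, single centromeres and fragments beside the inner limits were added after seeing the maps. The row alignment was tested on a thinned copy of the 25 °C map with some rows taken out. Ratios between chromosomes were tested on maps drawn from the fitted factors with a set rise in contacts with centromere regions. Borders, centromere placement, rates within a chromosome and calls of stretch pairs were not tested on simulated data. Python 3.11.15, numpy 2.4.6, scipy 1.17.1 and pandas 2.3.3 were used. No sequence was used here.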

Additional observations from a re-analysis of the deposited data

How the results depend on the processing

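Of 66 recomputed log2 ratios with centromere regions, the outermost class, arm regions, ends, own centromeres and between the arms, none reversed and 9 moved beyond the counting interval of the reported value. With the other distance classes and own left arms the count was 18 of 136. Of the 272 observed over expected ratios, 87 moved beyond theirs, 38 of them without raised fragments, 14 with the product of totals and 13 with the 5% filter. Leaving out raised fragments moved 6. Those with centromere regions became 0.34 for II and 0.53 for XIII, those with fragments 200 or more out -0.026 and -0.050, and those with arm regions -0.027 and -0.064. Counting at most 5 contacts per fragment pair gave 0.47 for II and 0.58 for XIII with centromere regions, and narrowing these regions to 4 fragments to each side gave 0.80 for XIII. The cause of these moves was not tested. The product of totals as expectation, no filter or a 5% filter on low fragments, and arms trimmed by 10 fragments at each end kept the log2 ratios among the 66 within their intervals. Leaving out each partner chromosome in turn gave 0.56 to 0.63 (II) and 0.68 to 0.75 (XIII) with centromere regions, -0.13 to -0.12 and -0.14 to -0.11 with fragments 200 or more out, -0.10 to -0.07 and -0.13 to -0.11 with arm regions, and 0.01 to 0.04 and 0.06 to 0.09 with ends. No paired analysis was possible because the replicates come combined into 1 map per temperature. The 37 °C map, with fewer contacts, sets the width of most intervals. Fragment positions are known only through the order of the maps, so distances may be off by several fragments, and by more on some chromosomes. The largest offset of a placed centromere from its interpolated position was 47.2 kb, at a mean of 2.81 kb per kept fragment.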
